A study of Mus musculus with 8 samples.

Results

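The genes described here are 8 genes tied to T cell anergy, Nrn1, Izumo1r, Nt5e, Cblb, Rnf128, Itch, Dgka and Dgkz, matched by exact symbol among the 24421 genes of the count tables, and all 8 were found. The libraries count 3' ends of transcripts from mouse CD8+ T cells, 4 of them control (LKB1 wild type) and 4 LKB1-deficient. Cells of both groups started as naive T cells and spent 48 hours on plates coated with anti-CD3 and anti-CD28 antibodies. Strain, age, sex, the tool that removed LKB1 and whether replicates are separate animals are not in the labels, and every p-value below therefore rests on library-to-library spread, which may be technical. The members were chosen by their known tie to anergy with the LKB1-deficient against control differences of these same libraries already known. Their values are therefore a description, and no p-value is given for them.

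Anergy is a state in which a T cell that has met its antigen without adequate costimulation stays alive but responds poorly to a second encounter. Textbook accounts place several kinds of gene in it. Surface proteins mark anergic cells, ubiquitin ligases tag signalling proteins of the T cell receptor pathway, and diacylglycerol kinases remove diacylglycerol, the lipid that switches on the Ras and protein kinase C arms of that pathway. The kinase LKB1 is the product of Stk11 and acts upstream of AMPK. Most work on anergy concerns CD4+ T cells, and several of these genes are also known from regulatory T cells.

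The control libraries held 7090252 to 12211930 gene counts and the LKB1-deficient libraries 3454388 to 6356125. Stk11 was at 67.8 to 101 CPM in the control and 64.4 to 107 CPM in the LKB1-deficient libraries (CPM, a gene's counts relative to the TMM-scaled library size). A 3' count does not check a deletion elsewhere in the gene, so these values do not test the genotype labels. LKB1-deficient replicates 2 and 4 stood apart on the first principal component, with scores of 51.7 and 54.4. Scores of the other LKB1-deficient libraries were 12.5 and 6.79, and those of control libraries ran from -37.9 to -21.7. Of 5 CD8+ T cell markers 3, Cd8a, Cd3d and Cd3g, were called lower, against 10.1% of all tested genes. Cd8b1 and Cd3e were not called, and mean Cd3e went the other way, from 79.1 to 98.5 CPM. The summed level of the 5 was 2984 to 3533 CPM in the control and 1498 to 2428 CPM in the LKB1-deficient libraries. Cd4 was at 0 to 1.17 CPM and Foxp3, which defines regulatory T cells, at 0 to 0.583 CPM over all 8 libraries. Of 6 markers of CD4 and regulatory T cells 3 were tested. None was called by edgeR, DESeq2 or limma-voom, and 1 had an unadjusted edgeR p under 0.05. Their summed level was 382 to 507 CPM in control and 444 to 573 CPM in LKB1-deficient libraries, mostly from Tnfrsf18, which activated T cells also express. The 5 B cell markers summed to 7.23 to 12.6 CPM in control and 4.56 to 7.88 CPM in LKB1-deficient libraries, with Pax5 at 0 in every library. The only tested B cell marker, Cd79b, fell (log2 fold change -0.94 ± 0.22, edgeR adjusted p = 0.0164). The 6 myeloid markers summed to 0.779 to 1.66 CPM in control and 0.27 to 2.91 CPM in LKB1-deficient libraries, and none was tested. The part of these differences in the results below was not tested.

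Of the 8 members, 7 had enough counts to be tested and Rnf128 did not. In the edgeR quasi-likelihood fit over all 10396 tested genes, Nrn1, Izumo1r and Dgka were called lower in the LKB1-deficient libraries (adjusted p under 0.05), and Nt5e, Cblb, Itch and Dgkz were not called. None was called higher, which also held at an unadjusted p under 0.05 and by DESeq2 and limma-voom. Over all tested genes 10.1% were called lower and 12.4% higher. In 3 of the 8 members every LKB1-deficient library lay below every control library, and this held for 14.1% of all tested genes. The median log2 fold change was -1.09 over the 7 tested members and 0.00 over all tested genes. These figures are printed side by side only, since the same contrast was in view when the members were chosen. In bulk RNA, fewer cells that express a gene and less of its RNA per cell cannot be told apart.

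**Figure D1:**
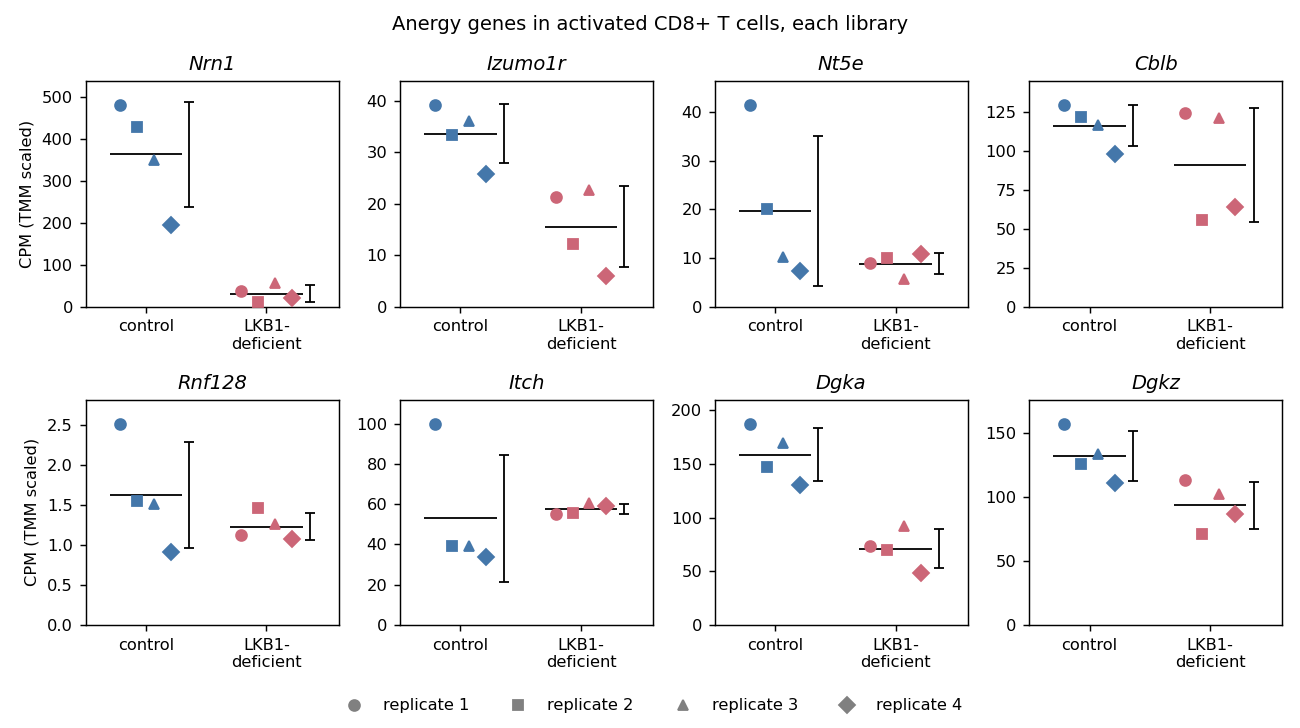
CPM of each member (vertical axis, from 0) in the 4 control and 4 LKB1-deficient libraries, with the mean as a line and the SD as a bar beside it. The groups do not overlap for Nrn1, Izumo1r and Dgka, and control replicate 1 stands at 99.99 CPM for Itch against 33.6 to 39.3 CPM in the other controls.

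RefSeq promoter windows of GRCm38.p6 were at hand for 6 of the 8 members, 10 windows in all. Nrn1, also called lower, and Itch had no window and were not searched. The windows before the start of Izumo1r and before the outermost start of Dgka are shown because both members were called lower. Each run is the 250 bases before the RefSeq start, 5′ to 3′ on the gene's own minus strand. Capitals mark the NFAT core letters GGAAA or their complement on the other strand. The windows are chr9:14903768-14904017 for Izumo1r and chr10:128745085-128745334 for Dgka. RefSeq starts differ here from those of GENCODE, the source of the gene coordinates given below. The Izumo1r window runs across the GENCODE start at 14903949, so part of it lies inside that gene. The Dgka window lies wholly upstream of the GENCODE start at 128744855.
Izumo1r: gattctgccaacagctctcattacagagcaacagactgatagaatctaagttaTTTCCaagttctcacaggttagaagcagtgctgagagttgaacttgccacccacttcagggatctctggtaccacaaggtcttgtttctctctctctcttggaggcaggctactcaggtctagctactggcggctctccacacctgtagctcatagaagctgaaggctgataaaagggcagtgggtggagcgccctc
Dgka: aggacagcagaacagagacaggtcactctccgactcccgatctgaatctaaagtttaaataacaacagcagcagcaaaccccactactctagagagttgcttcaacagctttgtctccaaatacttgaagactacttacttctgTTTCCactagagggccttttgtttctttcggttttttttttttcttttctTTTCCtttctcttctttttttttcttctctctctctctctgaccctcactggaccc
The NFAT core occurred 1 time in the Izumo1r window and 2 times in this Dgka window, and 0 to 2 times in the other member windows. On either strand it occurred in 55.6% of all 32851 windows of this length. The FOXO letters TGTTTAC (3.17% of all windows), the cyclic AMP response letters TGACGTCA (1.55%) and the AP-1 letters TGANTCA (6.75%) were in none of the 10 member windows, searched on both strands. Reads at the 3' end do not show which start was used.

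Nrn1 encodes neuritin, a small protein held to the membrane by a lipid anchor and first known from neurons. It is a protein-coding gene at GRCm38 chromosome 13, 36725361 to 36735131, minus strand. Its level was 481, 430, 350 and 194 CPM in control replicates 1 to 4 and 36.9, 11.1, 55.6 and 19.4 CPM in LKB1-deficient replicates 1 to 4. The lowest control was thus well above the highest LKB1-deficient library. The means were 364 ± 125 and 30.7 ± 19.7 CPM (SD, n = 4 each), 11.7-fold lower in LKB1-deficient cells (log2 fold change -3.54 ± 0.47, SE), and only 2 of the tested genes had a more negative fold change. The library with the lowest Nrn1 still held 38 counts. Exons of Nrn1 share 501 bases with Fars2 on the opposite strand, and whether the counting used strand is not given in the sources used here. Fars2 was at 17.7 to 19.8 CPM in control and 12.1 to 16.6 CPM in LKB1-deficient libraries.

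Izumo1r encodes folate receptor 4, a relative of the folate receptors that marks anergic and regulatory CD4+ T cells and, in the oocyte, binds the sperm protein IZUMO1. It is a protein-coding gene at GRCm38 chromosome 9, 14885814 to 14903949, minus strand. Its level was 39.2, 33.3, 36.2 and 25.7 CPM in control replicates 1 to 4 and 21.4, 12.2, 22.7 and 5.93 CPM in LKB1-deficient replicates 1 to 4. The groups did not overlap, but control replicate 4 and LKB1-deficient replicates 1 and 3 lay close together. The fold change was 2.13-fold lower (log2 fold change -1.09 ± 0.33). Leaving out a control replicate, whichever it was, or LKB1-deficient replicate 2 or 4 ended the call, with log2 fold changes of -1.20 to -0.83 in those fits, and the log2 fold change was -0.60 without both LKB1-deficient replicates 2 and 4. It also ended with no count filter (-1.12), after thinning to equal depth (-1.03) and when each library's trend on transcript length was removed (-0.86), and in all it was called in 9 of 21 alternatives.

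Nt5e encodes CD73, the surface enzyme that turns AMP into adenosine and, together with folate receptor 4, is used to sort anergic CD4+ T cells. It is a protein-coding gene at GRCm38 chromosome 9, 88327197 to 88372092, plus strand. Its level was 41.4, 19.99, 10.2 and 7.27 CPM in control replicates 1 to 4 and 9, 9.91, 5.67 and 10.8 CPM in LKB1-deficient replicates 1 to 4. The control libraries spread over 5.69-fold and their lower end lay within the LKB1-deficient range. The log2 fold change was -1.19 ± 0.50 with no call, and it was -0.54 without control replicate 1. Nt5e and Izumo1r thus had log2 fold changes of similar size in this fit, with a larger standard error for Nt5e. 

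Among the ubiquitin ligases, Cblb encodes CBL-B, which restrains signalling when CD28 is not engaged. It is a protein-coding gene at GRCm38 chromosome 16, 52031225 to 52208048, plus strand. Its level was 130, 122, 117 and 97.9 CPM in control replicates 1 to 4 and 124, 55.4, 121 and 63.9 CPM in LKB1-deficient replicates 1 to 4. LKB1-deficient replicates 1 and 3 lay within the control range, and replicates 2 and 4 lay below it. The log2 fold change was -0.35 ± 0.26 with no call, and it was 0.08 without LKB1-deficient replicates 2 and 4.

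Itch encodes a HECT-type ligase whose loss in mice causes inflammation and itching. It is a protein-coding gene at GRCm38 chromosome 2, 155133509 to 155226855, plus strand. Its level was 99.99, 39.2, 39.3 and 33.6 CPM in control replicates 1 to 4 and 55.1, 55.7, 60.4 and 59.3 CPM in LKB1-deficient replicates 1 to 4. The LKB1-deficient libraries were close to one another, above 3 of the controls and below control replicate 1. With all libraries the log2 fold change was 0.12 ± 0.31 with no call. Without control replicate 1 it was 0.62 and was called higher. Control replicate 1 and LKB1-deficient replicate 1 have sample identifiers that start with ET and the other libraries have EU. Within the 3 EU libraries of each group Itch had a log2 fold change of 0.64 and was called higher, and with 1 ET library in each group no test within ET was possible.

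Rnf128 encodes GRAIL, a membrane-bound ligase named for its role in lymphocyte anergy. It is a protein-coding gene at GRCm38 chromosome X, 139563316 to 139673145, plus strand. It had 28, 19, 20 and 7 counts in control replicates 1 to 4 and 4, 5, 8 and 4 counts in LKB1-deficient replicates 1 to 4, under the count filter. Summed over libraries this was 1.67 CPM in control (exact Poisson 95% interval 1.31 to 2.09) and 1.23 CPM in LKB1-deficient cells (0.762 to 1.88). The intervals cover counting error only and are no test of the difference. Without the count filter the fitted log2 fold change was -0.45 ± 0.42 (SE).

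The diacylglycerol kinases Dgka and Dgkz encode the alpha and zeta enzymes, the forms known to act in T cells. Dgka is a protein-coding gene at GRCm38 chromosome 10, 128720134 to 128744855, minus strand. Its level was 188, 148, 169 and 131 CPM in control replicates 1 to 4 and 74, 70.2, 92.1 and 48.5 CPM in LKB1-deficient replicates 1 to 4. Every control lay above every LKB1-deficient library. The means were 159 ± 24.9 and 71.2 ± 17.9 CPM (SD, n = 4 each), 2.22-fold lower in LKB1-deficient cells (log2 fold change -1.15 ± 0.20). The call held without each single library, where the log2 fold change was -1.31 to -1.01, and ended without both LKB1-deficient replicates 2 and 4 (-0.93). That smaller fit called 98 of all tested genes lower, against 1051 with all libraries. Pmel, which shares 105 exon bases with Dgka on the opposite strand, was at no more than 0.731 CPM in any library.

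Dgkz is a protein-coding gene at GRCm38 chromosome 2, 91932824 to 91975864, minus strand. Exons of Dgkz share 222 bases with Gm9821 on the opposite strand, a gene for which the counts hold no value. The level of Dgkz was 157, 126, 134 and 111 CPM in control replicates 1 to 4 and 114, 70.8, 102 and 86.8 CPM in LKB1-deficient replicates 1 to 4. The ranges met at control replicate 4 and LKB1-deficient replicate 1, and all other LKB1-deficient libraries were below all controls. The means were 132 ± 19.3 and 93.4 ± 18.7 CPM (SD, n = 4 each; log2 fold change -0.50 ± 0.17) with no call. The gene was called lower under 7 alternatives, among them DESeq2 (-0.49), total count scaling (-0.64) and leaving out LKB1-deficient replicate 1 (-0.60). Upper quartile scaling was also among the 7. It moved the median log2 fold change over all tested genes to -0.10, and total count scaling moved that median to -0.16.

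**Figure D2:**
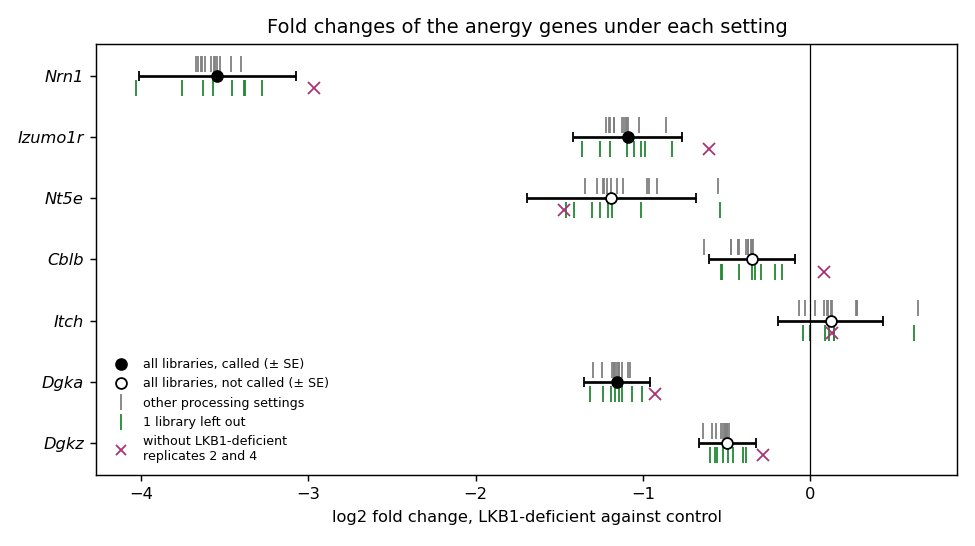
Log2 fold change of LKB1-deficient against control (horizontal axis) for the 7 tested members, with all libraries as circles ± SE (filled where called), other settings, the EU libraries alone included, as grey marks, fits without 1 library as green marks, and the fit without LKB1-deficient replicates 2 and 4 as crosses. Nrn1 stays between -4.03 and -2.97, while Cblb and Itch have marks on both sides of 0.

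Nrn1 was called lower in all 21 alternatives, and so was Dgka except without both LKB1-deficient replicates 2 and 4. Within the EU libraries the log2 fold change was -3.46 for Nrn1, -1.08 for Dgka, -1.18 for Izumo1r, -0.51 for Dgkz, -0.48 for Cblb and -0.55 for Nt5e, and among these only Nrn1 and Dgka were called.

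The members also varied within the groups. In the controls replicate 1 was the highest and replicate 4 the lowest for all 8 members, an order that 10.3% of all tested genes had, and total count scaling gave it for all 8 as well. Control replicate 4 also had the lowest depth of the controls, while replicate 1 (10751427 gene counts) was below replicates 2 and 3 (11950018 and 12211930). The part of depth in this order was not tested. In the LKB1-deficient group, replicates 2 and 4 were both below replicates 1 and 3 for Nrn1, Izumo1r, Cblb, Dgka and Dgkz, and for 29.3% of all tested genes. Nt5e, Itch and Rnf128 did not have that order. After each group's mean had been taken off log2 CPM, the Pearson correlation with Nrn1 over the 8 libraries was 0.92 for Cblb, 0.88 for Dgkz, 0.68 for Izumo1r, 0.64 for Dgka, 0.36 for Itch and 0.17 for Nt5e. These values describe 8 libraries that share depth and scaling, and they carry no test.

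**Figure D3:**
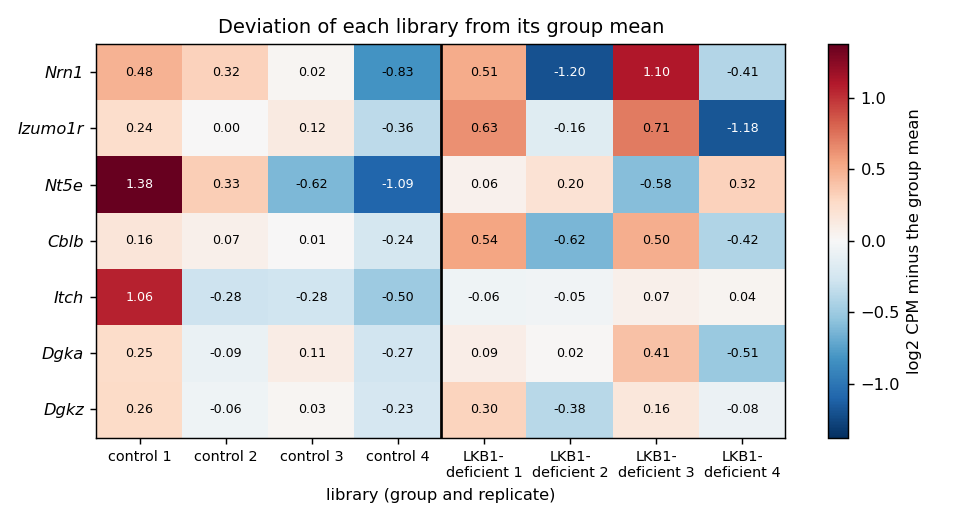
Log2 CPM of the 7 tested members (rows) in each library (columns) minus the mean of its own group, in color and digits, with red above and blue below the mean. Control replicate 1 is above and control replicate 4 below the mean in every row, and LKB1-deficient replicates 2 and 4 are below it for Nrn1, Izumo1r, Cblb and Dgkz.

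The genes whose log2 CPM was most like that of Nrn1 over the 8 libraries, among 7698 genes with a mean of at least 10 CPM, were Phf11b (Pearson r = 0.99), Bloc1s1 (0.99), Ephx1 (0.99), Traf3ip3 (0.99) and Sri (0.98). The groups were separate in Nrn1, so this r contains the difference between groups. By deviations from group means the most alike were Rab9 (r = 0.97), Bloc1s1 (0.96), Klhl6 (0.95), Tmed10 (0.94) and Fbxo3 (0.94). Only Bloc1s1 was in both sets of 5. It went from 48.6 CPM in control to 28.5 CPM in LKB1-deficient cells, whereas Tmed10 was at 84.2 and 91.8 CPM.

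Other genes of the anergy pathway were taken from 4 lists of 58 genes, of which 49 were tested, 8 rose and 5 fell by edgeR's quasi-likelihood test with Benjamini-Hochberg adjustment over all genes. Their median log2 fold change was 0.03. Over all tested genes 12.4% were called higher and 10.1% lower, so these counts are no result about the lists. The lists were chosen with earlier results of these data known, so the p-values of their genes describe these libraries and are no independent test. Of the 15 anergy regulators, all tested, 2 rose, 3 fell and 10 were not called (median -0.26). Nfatc2, encoding a calcium-driven transcription factor that switches on anergy genes, was at 13, 11.1, 11.9 and 15.6 CPM in control replicates 1 to 4 and 30.1, 29.1, 32.1 and 27.8 CPM in LKB1-deficient replicates 1 to 4. It rose by a log2 fold change of 1.21 ± 0.14 (edgeR adjusted p = 0.00268), and the groups were far apart. With the transcript length trend removed its log2 fold change was 0.86, still called. Sirt1, a deacetylase, also rose (0.61 ± 0.18, adjusted p = 0.0372), but its call ended without any single library except LKB1-deficient replicate 3 (adjusted p 0.0559 to 0.105), at log2 fold changes of 0.49 to 0.65.

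The 3 regulators that fell were Pdcd1, Nr4a1 and Cdkn1b. Pdcd1, encoding the inhibitory receptor PD-1, went from 62.9 ± 10.1 to 25.2 ± 8.4 CPM (SD, n = 4 each; log2 fold change -1.31 ± 0.23, edgeR adjusted p = 0.00636). Nr4a1, a nuclear receptor induced by T cell receptor signals, went from 216 ± 16.5 to 101 ± 36 CPM (-1.09 ± 0.23, edgeR adjusted p = 0.0127). Cdkn1b, encoding the cell cycle inhibitor p27, went from 56.4 ± 2.68 to 31 ± 2.58 CPM (-0.86 ± 0.12, edgeR adjusted p = 0.00341). These 3 and Nfatc2 were called without each single library and without both LKB1-deficient replicates 2 and 4, and 6 regulators were called lower without LKB1-deficient replicate 3. Egr2 and Egr3, transcription factors of the anergy programme, were not called. Egr2 was at 29.3 ± 5.77 and 31.8 ± 4.95 CPM (adjusted p = 0.662) and Egr3 at 56.7 ± 7.13 and 43.1 ± 8.44 CPM (adjusted p = 0.11). The small Egr2 difference had the opposite sign without LKB1-deficient replicates 2 and 4.

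**Figure D4:**
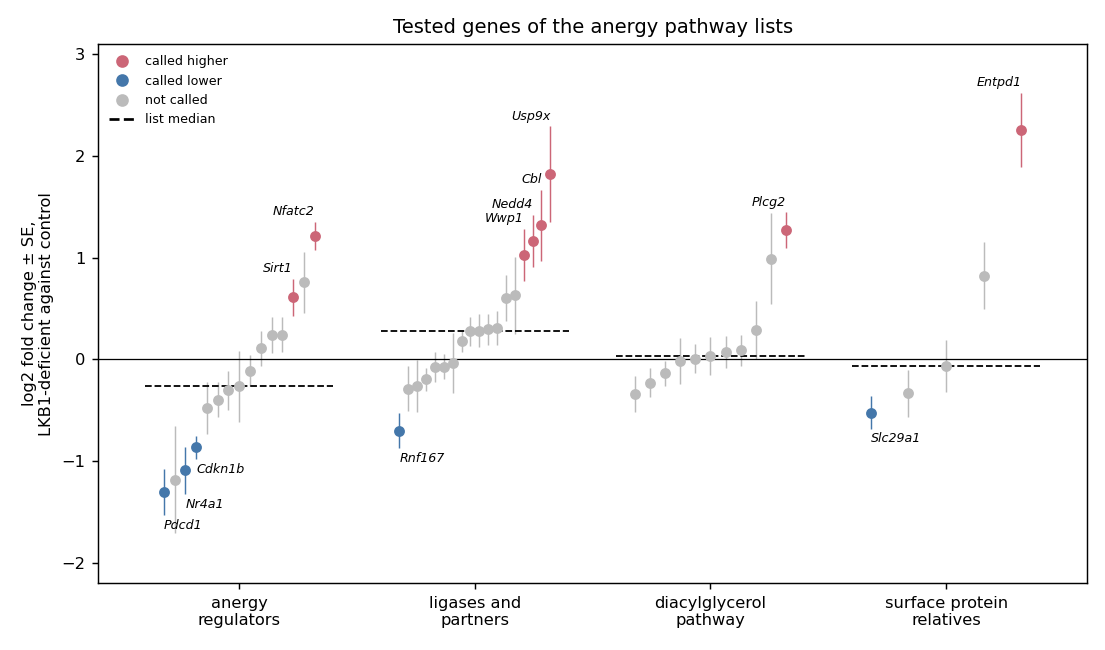
Log2 fold change ± SE (vertical axis) of the 49 tested genes in 4 lists of the anergy pathway (horizontal axis), ordered by value within each list, with red for called higher, blue for called lower, grey for not called and a dashed line at the list median. Entpd1 stands highest at 2.25 and Pdcd1 lowest at -1.31.

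Of 18 ubiquitin ligases, adaptors and deubiquitinases related to the ligases above, all tested, 4 rose, 1 fell and 13 were not called (median 0.28). Usp9x, a deubiquitinase, was at 32.3, 32.6, 8.55 and 10.5 CPM in control replicates 1 to 4 and 34, 105, 81.1 and 77.4 CPM in LKB1-deficient replicates 1 to 4. It rose by a log2 fold change of 1.82 ± 0.47 (edgeR adjusted p = 0.0237). LKB1-deficient replicate 1 lay just above the higher controls. Cbl, the close relative of Cblb, went from 18.3 ± 7.15 to 46 ± 19.9 CPM (1.32 ± 0.35, edgeR adjusted p = 0.0265), and its groups overlapped. Nedd4, a HECT-type ligase like Itch, went from 107 ± 20.9 to 240 ± 87.9 CPM (1.17 ± 0.26, edgeR adjusted p = 0.0137), and Wwp1, of the same family, from 33 ± 12.8 to 67.4 ± 15.2 CPM (1.03 ± 0.26, edgeR adjusted p = 0.0212). Rnf167, a membrane-bound ligase of the same domain type as GRAIL, fell from 38.8 ± 8.84 to 23.9 ± 2.58 CPM (-0.70 ± 0.17, edgeR adjusted p = 0.0207). Ndfip1, an adaptor that activates Itch and Nedd4, was at 204 ± 47.4 and 170 ± 61.2 CPM (adjusted p = 0.465), with the opposite sign without LKB1-deficient replicates 2 and 4.

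The 4 ligase genes that rose became 1, Nedd4, without control replicate 3, control replicate 4, LKB1-deficient replicate 2 or LKB1-deficient replicate 4, with adjusted p of 0.0695 to 0.0861 for Cbl, 0.0533 to 0.0661 for Usp9x and 0.0538 to 0.0688 for Wwp1 in those edgeR fits. The log2 fold changes in the same fits were 1.10 to 1.20 for Cbl, 1.56 to 1.81 for Usp9x and 0.89 to 1.01 for Wwp1. Without control replicate 1, Wwp1 had an adjusted p of 0.0502 (log2 fold change 0.92). The call of Rnf167 ended without LKB1-deficient replicate 2 or 4 (adjusted p = 0.058 and 0.0621, log2 fold change -0.67 and -0.66). Without both LKB1-deficient replicates 2 and 4 none of the 5 was called by edgeR (adjusted p 0.11 to 0.285). The log2 fold change of Cbl was 0.68 in that fit and 0.69, still called, with the transcript length trend removed. Removing that trend also made the others smaller in size, to 1.26 for Usp9x, 0.92 for Nedd4, 0.71 for Wwp1 and -0.58 for Rnf167, all still called.

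Of 17 genes that make, remove or sense diacylglycerol, other than Dgka and Dgkz, 11 were tested, 1 rose, none fell and 10 were not called (median 0.03). The count of 0 that fell held at an unadjusted p under 0.05 and by DESeq2 and limma-voom, and 2 were called lower with the transcript length trend removed. Plcg2, a phospholipase that makes diacylglycerol and is best known from B cells, went from 4.56 ± 0.205 to 11.1 ± 1.68 CPM (SD, n = 4 each; log2 fold change 1.27 ± 0.17, edgeR adjusted p = 0.00341) and kept its call without each single library. The other tested kinases Dgkd, Dgke, Dgkh and Dgkq had log2 fold changes of 0.03 ± 0.19, -0.34 ± 0.18, 0.99 ± 0.45 and 0.29 ± 0.29 with no call. Rasgrp1 and Prkcq, which sense diacylglycerol in T cells, were at 68.2 ± 8 and 62 ± 2.77 CPM and at 83.9 ± 11.6 and 89.4 ± 13.9 CPM in control and LKB1-deficient cells, also with no call. The difference between Dgka and these genes was not tested.

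Of 8 relatives and partners of the surface proteins, 5 were tested, 1 rose and 1 fell (median -0.06). Entpd1, encoding CD39, which supplies the AMP that CD73 uses, was at 1.17, 1.14, 1.89 and 2.47 CPM in control replicates 1 to 4 and 5.35, 6.7, 6.3 and 13.2 CPM in LKB1-deficient replicates 1 to 4. It rose by a log2 fold change of 2.25 ± 0.37 (edgeR adjusted p = 0.00536) and kept its call without each single library. The control values of Entpd1 lay near the floor of the count filter, which it passed through the higher LKB1-deficient libraries. With no count filter its log2 fold change was 2.22 (edgeR adjusted p = 0.00248). Slc29a1, a nucleoside transporter, fell from 125 ± 22.4 to 87 ± 12.9 CPM (-0.52 ± 0.16, edgeR adjusted p = 0.0418), a call that ended in each fit without 1 library except the fit without LKB1-deficient replicate 1 (adjusted p 0.0501 to 0.114), at log2 fold changes of -0.59 to -0.40. Ada, Adora2a and Adora2b, of adenosine removal and sensing, were not called.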

How the data were processed

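The authors deposited raw counts of reads, in a table per library keyed by gene symbol. Per the labels' protocols, cDNA was made with barcoded oligo-dT primers and the libraries are strand-specific. They mention no molecular identifiers, and PCR duplicates may therefore inflate counts. STAR and mm10 are named per the submitters' processing notes. The sources used here do not give the counting program, its annotation or its use of strand. The last 5 lines of each table name no gene and were removed. Reads outside genes made up 12.1% to 17.5% of gene, ambiguous and outside reads. No 2 libraries of a group were duplicates (chi-square / df of 11.6 to 49.05). The libraries of a group were not evenly spread. Among controls this value was 11.9 for replicates 3 and 4, 25.2 for replicates 1 and 2, and 40.9 to 49.05 for the other pairs. Among LKB1-deficient libraries it was 11.6 for replicates 2 and 4, 14.3 for replicates 1 and 3, and 32.6 to 38.4 for the other pairs.

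Tests used edgeR 4.0.16 in R 4.3.3, with filterByExpr (minimum count 10, minimum total 15), TMM, the robust quasi-likelihood test of LKB1-deficient against control with no covariate, and Benjamini-Hochberg adjustment over all 10396 tested genes at 0.05. The SE is approximate, |log2 fold change| / square root of F. The test was also run on simulated counts, whose outcome is not given here. Those counts held no shift shared by libraries of a group, such as that of LKB1-deficient replicates 2 and 4. Correlations used log2 CPM (prior count 2). Coordinates and lengths are from GENCODE vM21 (GRCm38, the mm10 assembly), which gave a length for 96.5% of tested genes. The members, lists and alternatives were chosen with earlier results of these data known. By rule the text names the members, the called genes of each list, Egr2, Egr3 and Ndfip1, and the 5 genes most like Nrn1 by each measure. The other genes named, among them Dgkd, Dgke, Dgkh, Dgkq, Rasgrp1, Prkcq, Ada, Adora2a and Adora2b, were chosen after their values were seen. Alternatives were upper quartile and total count scaling, DESeq2 1.42.0, limma-voom (limma 3.58.1), no filter, a floor of 10 on mean CPM, a replicate block, a term for the identifier letters, leaving out each library or LKB1-deficient replicates 2 and 4 together, thinning to 3454388 counts, removal of length trends (lowess span 0.3), an adjusted p of 0.01 and, chosen after seeing the data, the EU libraries alone.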

Additional observations from a re-analysis of the deposited data

Results flagged for a closer look

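In 3 of 48 groups of 4 libraries (24 genes in each of the 2 groups), 1 library lay far from the other 3 by Dixon's test, which chance gives in about 1 group in 20. Itch was at 99.99 CPM in control replicate 1 and at 33.6 to 39.3 CPM in the other controls. Wwp1 was at 52.1 CPM in control replicate 2 and at 25.4 to 28.8 CPM in the other controls. Egr3 was at 30.5 CPM in LKB1-deficient replicate 4 and at 47 to 47.5 CPM in the other LKB1-deficient libraries.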

How the results depend on the processing

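With all libraries 1286 genes were called higher and 1051 lower. Leaving out 1 library gave 560 to 1472 higher and 441 to 1353 lower. Without LKB1-deficient replicates 2 and 4 there were 162 higher and 98 lower, at an adjusted p of 0.01 there were 248 and 189, and the EU libraries alone, chosen after seeing the data, gave 1172 and 666. Of the calls 55.0% were higher with TMM, 41.4% with upper quartile scaling and 34.5% with total count scaling (829 higher, 1576 lower), which moved the log2 median over tested genes from 0.00 to -0.16. The signs of Itch (-0.034) and Egr2 (-0.060) under total count scaling changed with that shift of all genes. Itch was at -0.067 with the length trend removed and at -0.045 to 0.62 without single libraries. Without LKB1-deficient replicates 2 and 4, Cblb was at 0.080, Ndfip1 at 0.069 and Egr2 at -0.073. The cause of the sign changes outside total count scaling was not tested. Called members numbered 1 to 4 lower over the alternatives. Called anergy regulators that rose numbered 1 in place of 2 with the identifier term, the length trend removed, or scaling by upper quartile or total count. Ligases that rose numbered 2 in place of 4 with no filter, and ligases that fell 2 in place of 1 with the length trend removed. Of the surface relatives, 2 rose and 0 fell with the length trend removed, and 0 fell after thinning. With a floor of 10 on mean CPM, Plcg2 and Entpd1 were not tested. The replicate block gave 1075 higher and 827 lower genes and added a call of Dgkz (log2 fold change -0.51). The labels do not say whether same-numbered libraries share an animal or a day. In order of number, their deviations correlated at -0.25, 0.29, 0.30 and -0.09. For 1 of 4 numbers the control library correlated best with the LKB1-deficient library of its own number. These values do not show whether the numbers mark a pairing. Depth limits Rnf128, which had 4 to 28 counts per library.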
